A study of Mus musculus with 5 samples.

Results

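Simple repeats and tandem repeats are 2 of the 12 lines into which the authors sorted the reads of each library. Both lines were taken from the class counts of all 5 libraries by their names and not by a cut on their values, although earlier results of these data were known. The libraries come from primary mouse embryonic fibroblasts, grown to passage 4 and still dividing. For 4 of them DNA was recovered by chromatin immunoprecipitation (ChIP) with an antibody to γH2AX, the phosphorylated histone that marks damaged DNA and stalled replication forks. The fifth is input DNA, sequenced without immunoprecipitation, and the labels give it no genotype.

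The ChIP libraries differ in the gene for the retinoblastoma protein, which represses E2F transcription factors and binds chromatin regulators. Rb+/+ cells carry 2 intact copies of it and Rb-/- cells have none. RbΔL/+ cells carry 1 copy of the ΔL allele beside an intact copy, and in RbΔL/ΔL cells both copies are ΔL. The ΔL protein is changed at its docking site for partners with an LXCXE motif. No other allele and no drug is named for any library, and whether cells of several embryos were pooled is not given in the sources used here.

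Simple repeats, also called microsatellites, are runs of a very short unit repeated head to tail. Tandem repeats in the wider sense include arrays of longer units, such as minisatellites. Both kinds can slip during copying or fold into hairpins and other structures, and they are textbook places where replication forks stall. They are thus sequences where γH2AX can be looked for under replication stress, the subject named in the series title. Which annotation set the lines apart here, and whether a short array could enter either, is not given in the sources used here. Large satellite arrays, tandem repeats in the general sense, have a line of their own in the files, named Satellite. The files give no sequence or position for the loci behind either line, so the lines are described by their counts.

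Tandem repeats were the larger line by about an order of magnitude. They had 435783 counts in the input, and among the ChIP libraries Rb+/+ had 427842, Rb-/- had 413877, RbΔL/ΔL had 401738 and RbΔL/+ had 350684. Simple repeats had 40282 counts in the input, while Rb+/+ had 44374, RbΔL/+ had 40268, Rb-/- had 37983 and RbΔL/ΔL had 33906. Raw counts follow depth, and the totals over all lines ran from 13731924 in RbΔL/+ to 17896985 in Rb+/+. RbΔL/+ was thus the shallowest library and still held almost as many simple repeat counts as the input, whose total was 17180437. Each count was therefore read as a share, first of all lines and then of the 10 repeat lines that remain without Satellite and Unique genome. Those 10 lines held 7.31% of the counts of the input and from 7.26% (RbΔL/ΔL) to 7.85% (Rb-/-) in the ChIP libraries.

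With 1 library per genotype there is no replicate check on any difference, and no test between genotypes was run. The 95% intervals in parentheses cover counting error only. At these depths they are narrow, and how far libraries of the same genotype differ from each other is not known from these data. All 4 ratios to input share the same input library, and all ratios to Rb+/+ share that library.

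As shares of all lines, simple repeats were highest in RbΔL/+ and lowest in RbΔL/ΔL, with the input between them. Their share of all lines was 0.234% in the input (0.232 to 0.237). RbΔL/+ had a share of 0.293% (0.2904 to 0.296) and Rb+/+ of 0.248% (0.246 to 0.2503), both above the input, although Rb+/+ was level with the input (0.996, 0.982 to 1.009) against the 8 repeat lines without simple and tandem repeats. Rb-/- had a share of 0.227% (0.225 to 0.2297) and RbΔL/ΔL of 0.211% (0.209 to 0.213), both below it. None of these 5 intervals overlap. The distance from the input was largest for RbΔL/+, where the line held 8072 counts more than the input's share would give, or 0.0588% of that library's counts. The surplus of Rb+/+ was 2412 counts, or 0.0135%. RbΔL/ΔL lacked 3752 counts relative to the input's share, or 0.0234%, and Rb-/- lacked 1181 counts, or 0.00707%.

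**Figure D1:**
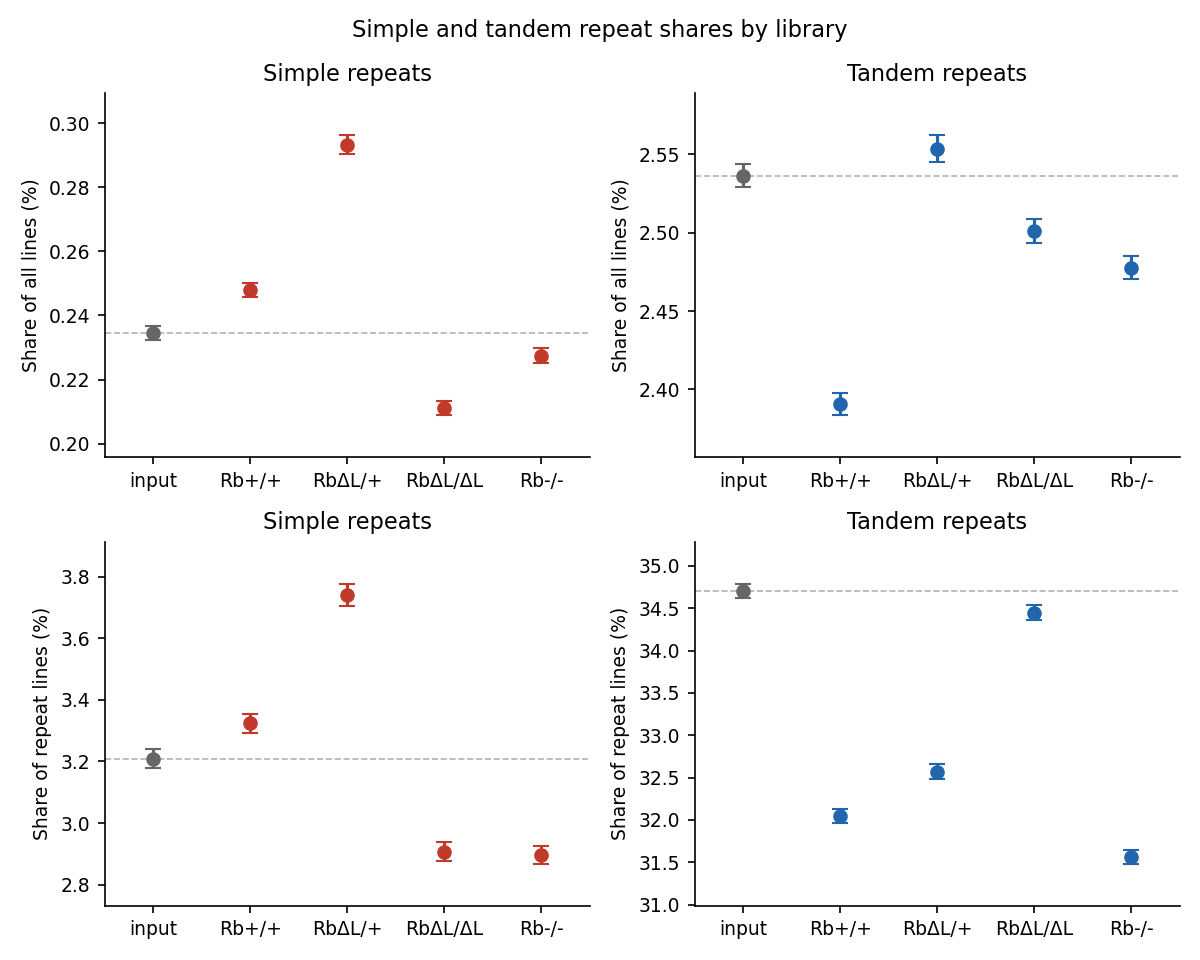
Share of each line in the 5 libraries, in percent of all 12 lines (top) and of the 10 repeat lines without Satellite and Unique genome (bottom), with 95% exact binomial intervals. The dashed line marks the input and the vertical axes do not start at 0. Simple repeats are highest in RbΔL/+ in both rows, at 0.293% and 3.74%, whereas the order of libraries for tandem repeats differs between the rows.

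As ratios to the input, simple repeats of RbΔL/+ stood at 1.25 (1.23 to 1.27) and those of Rb+/+ at 1.06 (1.04 to 1.07). Rb-/- followed at 0.970 (0.956 to 0.984) and RbΔL/ΔL at 0.9004 (0.887 to 0.913). A difference of 1.1-fold or more, a limit of size and not of significance, was reached upward by RbΔL/+ and downward by RbΔL/ΔL. In RbΔL/+, 58.3% of the 12 lines were at least 1.1-fold higher than the input, so passing the limit there was common. In RbΔL/ΔL, 16.7% of lines were at least 1.1-fold lower, and these are simple repeats and Satellite. Simple repeats did not reach the limit in Rb+/+ or Rb-/-, where 33.3% and 50% of lines passed it in either direction.

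The place of simple repeats among the lines differed between libraries. By ratio to input they ranked 2 of 12 in RbΔL/+, behind the Pseudogene line. The lines next below were Other transposable elements (1.17, 1.11 to 1.23) and LTR Retrotransposons (1.16, 1.06 to 1.28). The LTR interval overlapped that of simple repeats, so counting error leaves this rank open. Simple repeats ranked 3 for Rb+/+, 9 for Rb-/- and 11 for RbΔL/ΔL, where the Satellite line alone was lower. In Rb-/- their interval overlapped those of the neighbours in rank, tandem repeats and DNA transposons. When each of the other 11 lines serves in turn as the denominator, the library totals cancel. The numbers of lines exceeded then restate the ranks and are no separate check. Simple repeats of RbΔL/+ exceeded the input relative to 10 lines, all but Pseudogene, with a median factor of 1.13. In RbΔL/ΔL they were lower than the input relative to 10 lines, all but Satellite, with a median factor of 0.913. Rb+/+ exceeded the input relative to 9 of 11 lines (median 1.098), and Rb-/- was lower relative to 8 of 11 (median 0.960).

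**Figure D2:**
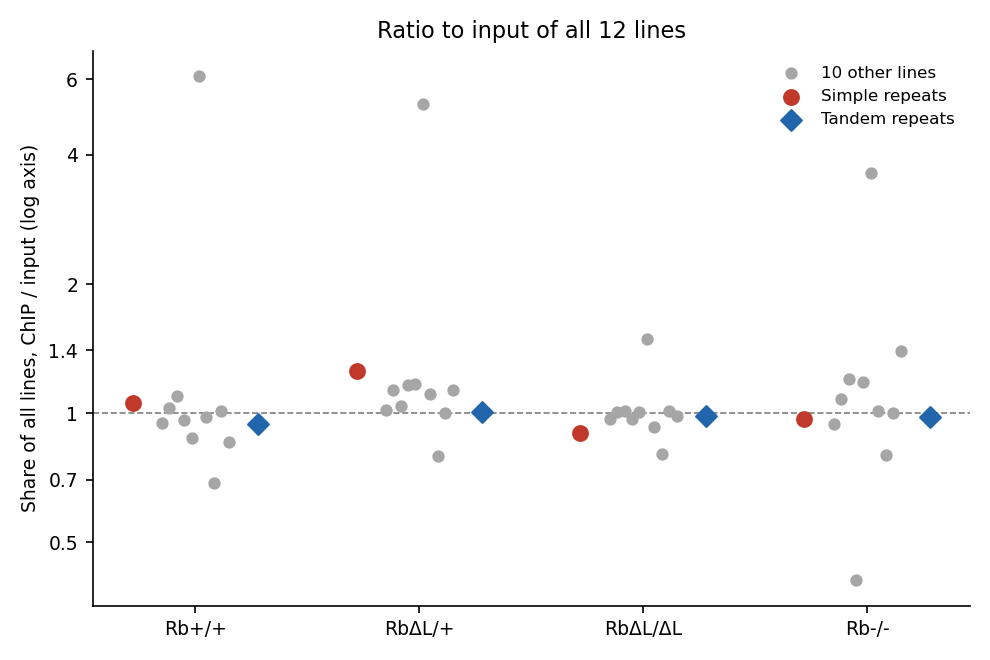
Share of all lines in each ChIP library divided by that in the input, on a log axis, for simple repeats (red circles), tandem repeats (blue diamonds) and the 10 other lines (grey). Simple repeats lie near the top of the lines in RbΔL/+ (1.25) and near the bottom in RbΔL/ΔL (0.9004), while tandem repeats stay between 0.942 and 1.007 in the 4 libraries.

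Expressed as a share of the 10 repeat lines, simple repeats kept RbΔL/+ at the top. They made up 3.21% of the repeat lines of the input (3.18 to 3.24), while RbΔL/+ had 3.74% (3.704 to 3.78) and Rb+/+ had 3.32% (3.29 to 3.35). RbΔL/ΔL with 2.91% (2.88 to 2.94) and Rb-/- with 2.897% (2.87 to 2.93) were the 2 lowest, and their intervals overlapped. The ratio to input was 1.17 (1.15 to 1.18) for RbΔL/+ and 1.04 (1.02 to 1.0501) for Rb+/+. It was 0.906 (0.894 to 0.919) for RbΔL/ΔL and 0.903 (0.891 to 0.916) for Rb-/-.

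On this scale RbΔL/+ was again past 1.1-fold, where 20% of the 10 repeat lines were higher by that much, namely simple repeats and Pseudogene. RbΔL/ΔL and Rb-/- were past it on the low side, which 10% and 30% of the repeat lines reached in those libraries. For RbΔL/ΔL the line that makes up this 10% is simple repeats itself. Rb+/+ was not past the limit, which 30% of its repeat lines reached in either direction.

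Between genotypes and over all lines, the widest gap in simple repeats was between the library with 1 ΔL copy and the library with 2. Over all lines, RbΔL/+ stood at 1.39 times RbΔL/ΔL (1.37 to 1.41), 1.29 times Rb-/- (1.27 to 1.31) and 1.18 times Rb+/+ (1.17 to 1.199). Rb+/+ in turn was 1.17 times RbΔL/ΔL (1.16 to 1.19) and 1.09 times Rb-/- (1.08 to 1.11). The smallest gap was between Rb-/- and RbΔL/ΔL, at 1.08 (1.06 to 1.09). Of the 6 pairs, this is the one that closed on the repeat line scale, where RbΔL/ΔL stood at 1.00 times Rb-/- (0.989 to 1.02). On that scale RbΔL/+ stood about as far from Rb-/- (1.291, 1.273 to 1.309) as from RbΔL/ΔL (1.286, 1.268 to 1.305). The gap between RbΔL/+ and Rb+/+ was 1.13 (1.11 to 1.14) there.

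The mutant libraries therefore did not lie on the same side of the wild type for simple repeats. Relative to Rb+/+, the share over all lines was higher in RbΔL/+ but lower for RbΔL/ΔL (0.851, 0.839 to 0.864) and Rb-/- (0.917, 0.905 to 0.930). RbΔL/+ and RbΔL/ΔL were past 1.1-fold here, in opposite directions. For RbΔL/+ 58.3% of lines were at least 1.1-fold higher than in Rb+/+, and for RbΔL/ΔL 16.7% were at least 1.1-fold lower. Rb-/- did not reach the limit over all lines, which 41.7% of its lines did in either direction. Over the 10 repeat lines it did, at 0.871 (0.8598 to 0.883), close to RbΔL/ΔL at 0.875 (0.863 to 0.887), and 30% and 20% of repeat lines were at least 1.1-fold lower than in Rb+/+ in those libraries. RbΔL/+ remained past the limit on that scale, where 40% of its repeat lines were at least 1.1-fold higher than in Rb+/+. Set against each of the other 11 lines in turn, simple repeats of RbΔL/+ exceeded Rb+/+ relative to 8 of them, with a median factor of 1.07.

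Tandem repeats varied far less, and all 5 libraries lay within a narrow band. Their share of all lines was 2.54% in the input (2.53 to 2.54). RbΔL/+ was the highest with 2.55% (2.55 to 2.56), followed below the input by RbΔL/ΔL with 2.5013% (2.49 to 2.51), Rb-/- with 2.48% (2.47 to 2.49) and Rb+/+ with 2.39% (2.38 to 2.3977). As ratios to the input, RbΔL/+ stood at 1.007 (1.002 to 1.011), RbΔL/ΔL at 0.986 (0.982 to 0.9903), Rb-/- at 0.977 (0.973 to 0.981) and Rb+/+ at 0.942 (0.939 to 0.946). None of the 4 reached 1.1-fold in either direction, a limit that 66.7% of lines passed for RbΔL/+, 25% for RbΔL/ΔL, 50% for Rb-/- and 33.3% for Rb+/+.

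The tandem repeat line is large, so small ratios still stand for many reads. Rb+/+ lacked 26116 counts relative to the input's share, or 0.146% of its counts, and Rb-/- lacked 9808 counts, or 0.0587%. For RbΔL/ΔL the shortfall was 5653 counts, or 0.0352%, and RbΔL/+ had a surplus of 2373 counts, or 0.0173%. The shortfall of Rb+/+ in tandem repeats thus exceeded, in counts, the surplus of RbΔL/+ in simple repeats.

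Relative to Rb+/+ and as shares of all lines, tandem repeats were slightly higher in the 3 mutant libraries, where RbΔL/+ was at 1.07 (1.06 to 1.07), RbΔL/ΔL at 1.046 (1.04 to 1.051) and Rb-/- at 1.04 (1.03 to 1.04). None reached 1.1-fold, which 66.7%, 41.7% and 41.7% of lines did in those libraries in either direction. Over the 10 repeat lines RbΔL/+ (1.02, 1.013 to 1.02) and RbΔL/ΔL (1.07, 1.07 to 1.08) were still above Rb+/+, but Rb-/- was below it (0.985, 0.981 to 0.988). None reached 1.1-fold on that scale, which 60%, 40% and 50% of repeat lines did in RbΔL/+, RbΔL/ΔL and Rb-/- in either direction. Among the mutants the highest over all lines, RbΔL/+, was 1.03 times the lowest, Rb-/- (1.03 to 1.04). Simple repeats of the same libraries differed by 1.29 times.

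On the scale of the 10 repeat lines, tandem repeats were the largest line in each library and lay below the input in all 4 ChIP libraries. They held 34.7% of the repeat lines in the input (34.6 to 34.8) and 34.4% for RbΔL/ΔL (34.4 to 34.5). RbΔL/+ had 32.6% (32.5 to 32.7), Rb+/+ had 32.0% (31.97 to 32.1) and Rb-/- had 31.6% (31.5 to 31.6). The order of libraries changed with the scale, and RbΔL/+ went from just above the input to 0.939 times it (0.935 to 0.942). RbΔL/ΔL was nearest to the input at 0.993 (0.989 to 0.996), Rb+/+ stood at 0.924 (0.9203 to 0.927) and Rb-/- was lowest at 0.9095 (0.906 to 0.913).

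None of these tandem repeat ratios over the 10 repeat lines was past 1.1-fold, although Rb-/- was just inside the limit. The limit was passed in either direction by 20% of repeat lines for RbΔL/ΔL and RbΔL/+, 30% for Rb+/+ and 70% for Rb-/-. Since tandem repeats are themselves a large part of this denominator, the 8 repeat lines without simple and tandem repeats were also used. Tandem repeats then stood at 0.984 for RbΔL/ΔL, 0.915 for RbΔL/+, 0.887 for Rb+/+ and 0.862 for Rb-/-. Rb+/+ and Rb-/- were past 1.1-fold on the low side there, as were 50% of the 10 repeat lines in each.

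For simple repeats, RbΔL/+ was the highest and Rb+/+ the second highest of the 4 ChIP libraries under all 6 denominators or scalings applied. RbΔL/ΔL and Rb-/- were the 2 lowest, in an order that changed. RbΔL/+ stayed above the input under all 6, and RbΔL/ΔL and Rb-/- stayed below it, whereas Rb+/+ was level with the input with the 8 repeat lines as denominator and above it otherwise. For tandem repeats, RbΔL/+ was the highest when set against all lines or Unique genome and the lowest when the median line ratio of each library to the input was set to 1 (0.90) or when each other line served in turn as the denominator (median 0.890). Both of these values are past 1.1-fold, which 25% and 33.3% of lines reached on the low side. Against Unique genome, tandem repeats of RbΔL/+ could not be told from the input (1.004, 0.999 to 1.008). Setting the median to 1 moved RbΔL/+ by 0.16 on the log2 scale, the only ChIP library it moved by more than 0.1. With it, simple repeats of RbΔL/+ stood at 1.12 times the input (1.1027 to 1.134) and those of Rb+/+ at 1.09 (1.074 to 1.1028). These intervals just overlap, so the lead of RbΔL/+ over Rb+/+ was small under this setting. The 6 settings overlap and are not separate checks. Unique genome held from 88.7% (input) to 89.8% (Rb+/+) of all counts, and both settings by a median scale each library in nearly the same way.

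**Figure D3:**
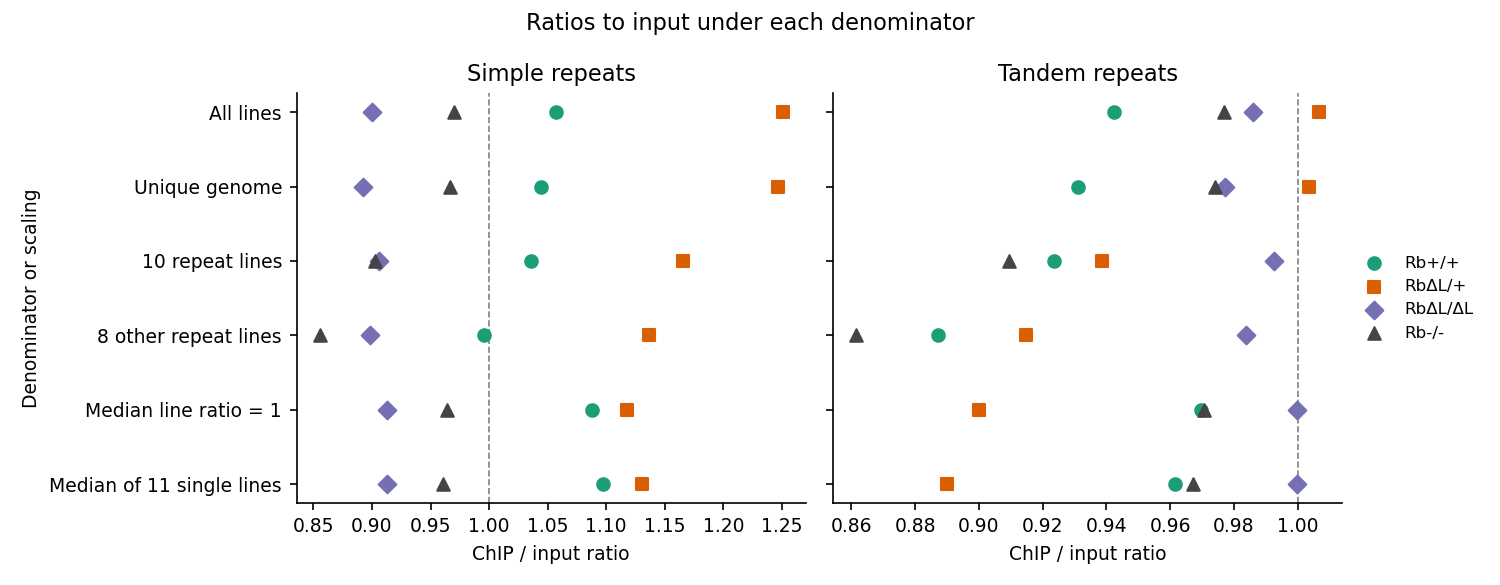
Ratio of each ChIP library to the input for simple repeats (left) and tandem repeats (right), with a row for each denominator or scaling and a marker for each genotype. For simple repeats RbΔL/+ lies to the right of the other libraries in every row, from 1.12 to 1.25, whereas for tandem repeats RbΔL/+ moves from the highest place (1.007) to the lowest (0.890).

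The ratio of the 2 counts within a library needs no library total, but it is built from the counts already described and is not separate from their shares. There were 10.8 tandem repeat counts for each simple repeat count in the input (10.7 to 10.9). RbΔL/+ had 8.71 (8.62 to 8.80) and Rb+/+ had 9.64 (9.55 to 9.74), both fewer than the input. Rb-/- had 10.9 (10.8 to 11.01), which overlapped the input, and RbΔL/ΔL had 11.8 (11.7 to 11.98). RbΔL/+ and RbΔL/ΔL thus lay on opposite sides of the input. Simple repeats formed 8.46% of the counts of both lines together in the input, and from 7.78% (RbΔL/ΔL) to 10.3% (RbΔL/+) in the ChIP libraries.

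**Figure D4:**
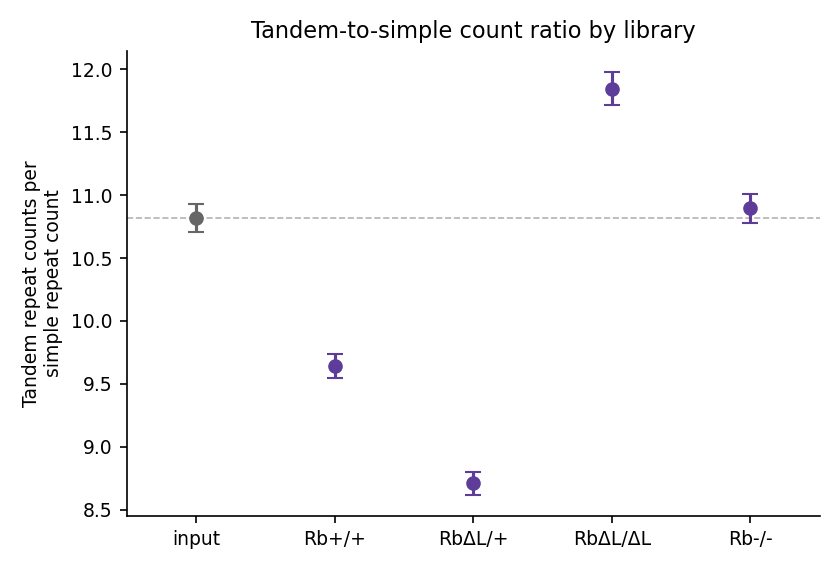
Tandem repeat counts divided by simple repeat counts in each library, with 95% exact binomial intervals, and the input marked by the dashed line. The vertical axis does not start at 0. RbΔL/+ has the lowest ratio at 8.71 and RbΔL/ΔL the highest at 11.8, and the interval of Rb-/- overlaps that of the input.

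Divided by the input's own value, the tandem-to-simple ratio was 0.805 (0.793 to 0.817) for RbΔL/+, 0.891 (0.879 to 0.904) for Rb+/+, 1.007 (0.993 to 1.02) for Rb-/- and 1.095 (1.08 to 1.11) for RbΔL/ΔL. Against Rb+/+ it was 0.903 (0.8905 to 0.916) for RbΔL/+, 1.13 (1.11 to 1.15) for Rb-/- and 1.23 (1.21 to 1.25) for RbΔL/ΔL. In the direct comparison of both ΔL libraries, RbΔL/+ held 1.36 times as many simple repeat counts per tandem repeat count as RbΔL/ΔL (1.34 to 1.38). RbΔL/ΔL in turn held 1.09 times as many tandem repeat counts per simple repeat count as Rb-/- (1.07 to 1.104). Their simple repeat shares of the repeat lines had overlapped.

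Summed into a single group, both lines no longer showed the difference between them. Their joint share of all lines was 2.77% in the input, and RbΔL/+ had 2.85%, RbΔL/ΔL 2.71%, Rb-/- 2.71% and Rb+/+ 2.64%. RbΔL/ΔL and Rb-/- could not be separated by counting error on this sum (ratio 1.00, 0.999 to 1.007). Over the 10 repeat lines they differed, with RbΔL/ΔL at 1.08 times Rb-/- (1.08 to 1.09), and the sum in RbΔL/+ went from 1.03 times the input over all lines to 0.958 times it (0.955 to 0.961). Tandem repeats supply most of its counts.

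Other features of the libraries moved beside these values. RbΔL/+, which had the highest simple repeat share, was also the shallowest library. It was the highest of the 4 ChIP libraries for 6 of 12 lines, simple and tandem repeats among them. The median ratio to input over the 8 repeat lines without simple and tandem repeats was 1.13 for RbΔL/+, 1.13 for Rb-/-, 0.995 for RbΔL/ΔL and 0.972 for Rb+/+. Simple repeats of RbΔL/+ thus lay above that library's median, whereas those of Rb-/-, at 0.970, lay below theirs. The Satellite line, part of the total over all lines, was 3.95% of counts in the input and 2.71% to 3.18% in the ChIP libraries. The part of depth and of these other lines in the results was not tested.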

How the data were processed

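γH2AX ChIP-seq libraries of 4 Rb genotypes and 1 input library were used, 1 library per group, assigned by the labels' genotype or title. The authors deposited whole-number read counts for 12 lines per library, without normalization. The submitters' processing notes name Bowtie 1.0, MACS 1.4.2 and the build mm9, with no role or order. The repeat annotation behind the lines, the counting of reads that fit several copies or lines, and any removal of duplicates: none of this is given in the sources used here. These choices can move both lines, since short and repeated sequence is hard to place. Satellite family counts and peak lists were not used here.

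Counts were divided by the sum of all lines or of the 10 repeat lines without Satellite and Unique genome. Shares and the ratio of both counts have exact (Clopper-Pearson) 95% binomial intervals, and ratios between libraries have 95% counting intervals on the log ratio. The reads carry no molecular identifiers and may repeat the same molecule. Totals of 13731924 to 17896985 counts set this precision. The text describes both lines in every library, and names others only where a rank, count or denominator turns on them. The lines, limits and alternatives were chosen with earlier results of these data known. Python 3.11.15, numpy 2.4.6, scipy 1.17.1 and matplotlib 3.10.9 were used. The intervals of ratios between libraries were checked on counts simulated with counting error alone. That check cannot show whether they cover repeated molecules or the spread between libraries.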

Additional observations from a re-analysis of the deposited data

Results flagged for a closer look

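As shares of all lines, both lines lay above the input for some genotypes and below it for others, beyond counting error. Each such difference compares single libraries, and the difference was not tested. Simple repeats were above the input in RbΔL/+ (1.25) and Rb+/+ (1.06) and below it in Rb-/- (0.970) and RbΔL/ΔL (0.9004). Tandem repeats were above it in RbΔL/+ (1.007) and below it in RbΔL/ΔL (0.986), Rb-/- (0.977) and Rb+/+ (0.942). For tandem repeats this rests on RbΔL/+, which could not be told from the input against Unique genome (1.004, 0.999 to 1.008) and was below it under the other 4 settings, at 0.939, 0.915, 0.90 and 0.890. The ratio of tandem to simple counts, relative to that of the input, was below 1 for RbΔL/+ (0.805) and Rb+/+ (0.891) and above 1 for RbΔL/ΔL (1.095).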

How the results depend on the processing

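No paired analysis was possible because each group has 1 library. For the same reason no library could be left out within a group. With the 10 repeat lines as denominator, simple repeats moved outside the interval of the value over all lines to 1.04 in Rb+/+, 1.17 in RbΔL/+ and 0.903 in Rb-/-, and tandem repeats to 0.924 in Rb+/+, 0.993 in RbΔL/ΔL and 0.9095 in Rb-/-, while RbΔL/+ turned from above to below the input (0.939). With the 8 other repeat lines, simple repeats were at 1.14 in RbΔL/+ and 0.855 in Rb-/- and came level with the input in Rb+/+ (0.996, 0.982 to 1.009), and tandem repeats were at 0.887 in Rb+/+ and 0.862 in Rb-/- and turned to 0.915 in RbΔL/+. Against Unique genome, tandem repeats moved to 0.931 in Rb+/+ and 0.977 in RbΔL/ΔL. With the median line ratio set to 1, simple repeats were at 1.09 in Rb+/+ and 1.12 in RbΔL/+, and tandem repeats at 0.9697 in Rb+/+, 0.99994 in RbΔL/ΔL and 0.971 in Rb-/-, with RbΔL/+ turned to 0.90. The median over each other line as denominator, added after the data were seen, gave 1.098 in Rb+/+ and 1.13 in RbΔL/+ for simple repeats, and 0.961 in Rb+/+, 0.9999 in RbΔL/ΔL, 0.967 in Rb-/- and, turned, 0.890 in RbΔL/+ for tandem repeats.

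With Rb+/+ in place of the input, simple repeats of RbΔL/+ were at 1.18, of RbΔL/ΔL at 0.851 and of Rb-/- at 0.917. Tandem repeats were at 1.07 in RbΔL/+ and turned to 1.046 in RbΔL/ΔL and 1.04 in Rb-/-, since Rb+/+ was the lowest library for them. The tandem-to-simple ratio was then 0.903, 1.23 and 1.13 in the same order. Between genotypes with the 10 repeat lines, tandem repeats turned direction in Rb+/+ over Rb-/- (1.02) and in RbΔL/+ over RbΔL/ΔL (0.945), and the gap in simple repeats between RbΔL/ΔL and Rb-/- closed (1.00). The number of lines past the fold limit rose from 4 to 8 in Rb+/+ with the smaller limit set as alternative, and fell from 8 to 2 in RbΔL/+ with the 10 repeat lines. Beyond the settings' own construction, the cause was not tested. Depth sets the width of the intervals, and its part in the values was not tested.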
